A study of Sus scrofa with 22 samples.

Results

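The miR-193 and miR-365 family was described in small RNA sequenced from subcutaneous fat of 22 female pigs aged 6 months. Its members were chosen by name: all deposited sequences called miR-193a-5p, miR-193a-3p, miR-193b, miR-365-3p or miR-365-5p were summed per library. Of these 5 names, 4 were in the tables. No sequence was called miR-193b. The 4 names covered 87 of 8479 sequences and stood among 250 mature miRNA names, 191 of which had reads in every breed.

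The animals were of 3 breeds, and their subcutaneous fat was classed in the labels as thick or thin. There were 5 thick and 2 thin libraries in Hampshire, 4 and 3 in Pietrain, and 4 and 4 in Large White. No animal is described as treated or genetically altered, and the labels do not give the thickness that separated the classes. Each breed was deposited as a table of its own, so breed and any preparation or sequencing batch that followed it cannot be told apart. Library totals ran from 431542 to 2315501 reads in Hampshire, from 759210 to 3137757 in Pietrain and from 558144 to 2731336 in Large White. No sequence was listed with fewer than 6 reads in a library unless it was at 0, so a 0 may stand for a few reads. miR-378, a miRNA abundant in fat cells, averaged 10367 CPM (counts scaled to a common total by TMM library sizes) and had reads in all 22 libraries. No other tissue was sequenced here, so this is no test of the fat label.

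A miRNA hairpin can yield a mature strand from each side, the 5p and the 3p arm, and bases 2 to 8 of a mature strand, its seed, set most of its pairing with target transcripts. In mammals the genes of miR-193b and of miR-193a each lie close to a miR-365 gene, so the 2 families can be made from shared transcripts. In mouse the miR-193b and miR-365 cluster is enriched in brown fat and has been described as promoting brown adipocyte differentiation. In the RefSeq gene table of pig assembly Sscrofa11.1, MIR193A and MIR365-2 stood in neighbouring rows of 1 chromosome, and MIR365-1 was on another chromosome.

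The most abundant sequence of each name is given with its seed in capitals, since the seed defines a miRNA family.
miR-193a-5p: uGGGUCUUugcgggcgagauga
miR-193a-3p: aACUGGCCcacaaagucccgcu
miR-365-3p: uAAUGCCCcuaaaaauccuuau
miR-365-5p: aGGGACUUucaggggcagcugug
The 4 seeds differed from each other, and none of the other 246 names had any of them in its most abundant sequence. Reads of miR-365-5p began at 2 positions. The second start, 1 base further 5′, held 94 of 521 reads and moved the seed to AGGGACU in the sequence below, again with bases 2 to 8 in capitals.
miR-365-5p, earlier start: gAGGGACUuucaggggcagcugu
In the other names nearly all reads shared 1 seed, with 99.99% of miR-193a-5p reads, 99.94% of miR-365-3p reads and 99.3% of miR-193a-3p reads.

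The name miR-193a-3p joined a pair of sequence forms that share their seed and differ further 3′. They are called here the CCC form and the CCU form after positions 7 to 9, and the differing bases are in capitals.
miR-193a-3p CCU form: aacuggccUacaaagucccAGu
miR-193a-3p CCC form: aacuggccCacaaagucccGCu
Counted from 1 at the 5′ end, with the base of the CCU form first, they differ by U9C, A20G and G21C and share 19 of 22 bases. The CCC sequence shown held 2254 reads and the CCU sequence 289 reads. The tables do not say from which gene either form came. In mouse and human the 3p arms of miR-193a and miR-193b also share a seed and differ outside it. RefSeq lists 1 miR-193 gene, MIR193A, for assembly Sscrofa11.1. The missing name miR-193b therefore does not show that miR-193b is absent from the fat. Whether the CCC form, or other reads under the name miR-193a-3p, come from miR-193b was not tested.

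miR-193a-5p was the most abundant member and miR-365-5p the least. Over all libraries miR-193a-5p had 42036 reads in 33 sequences and was the 50th of 250 names by reads. miR-365-3p had 20316 reads in 28 sequences and ranked 60th. Both had reads in all 22 libraries. miR-193a-3p had 3747 reads in 18 sequences and 17 libraries, and miR-365-5p 521 reads in 8 sequences and 15 libraries. For miR-193 the 5p arm was thus the deeper one and for miR-365 the 3p arm: the 5p arm held a median of 91.1% of miR-193a reads and of 1.87% of miR-365 reads per library (n = 22). Libraries with miR-193a-3p at 0 enter the first share as 100%, and over the 17 libraries with reads its median was 89.5%. The first share counts both forms of miR-193a-3p, and the tables do not say whether both come from the hairpin of miR-193a-5p. Reads of miR-365 were not assigned to MIR365-1 or MIR365-2, so the second share is not the arm balance of a single hairpin. Against CCU reads alone the miR-193a-5p share was 93.2% to 99.8% (median 99.0%, n = 17), and against CCC reads alone 81.0% to 96.0% (median 91.7%, n = 17).

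**Figure D1:**
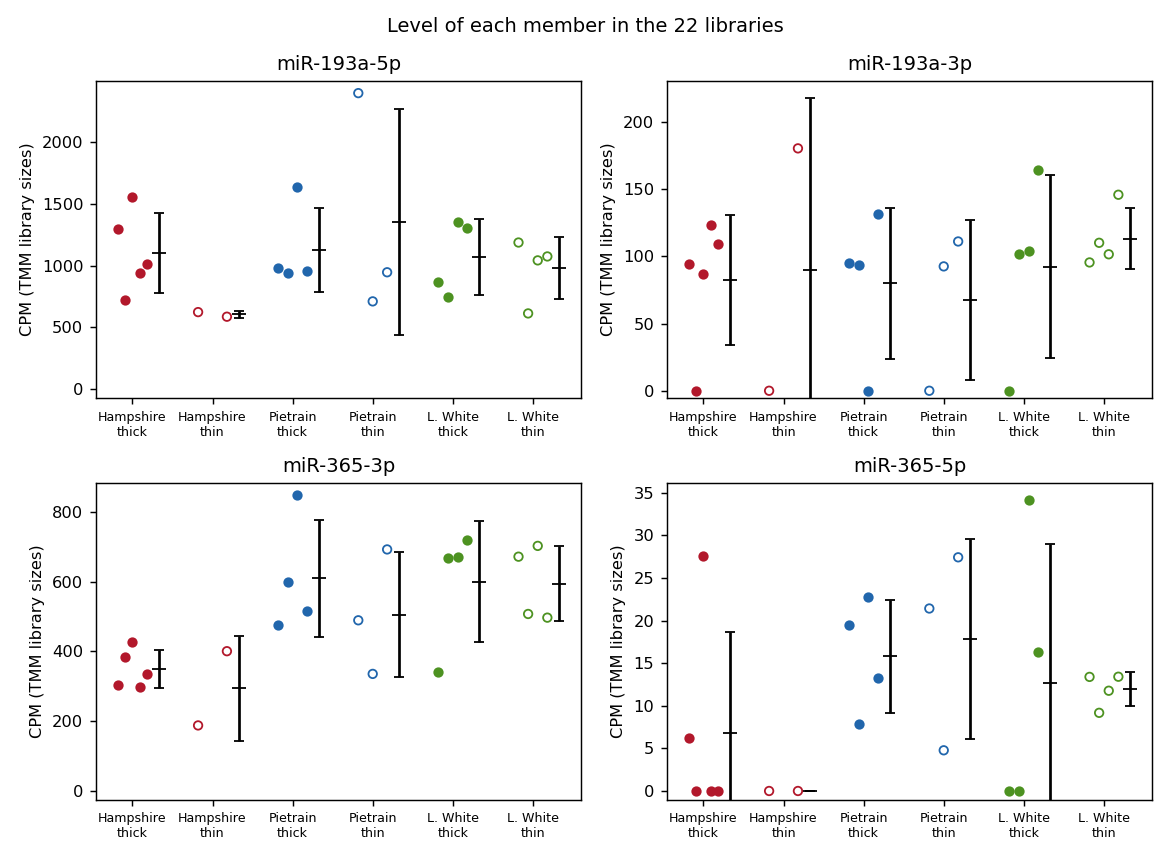
Level of each member in every library (vertical axis, CPM, linear) by breed and fat class (horizontal axis); filled points are thick fat, open points thin fat, and the black mark with bars is the mean and SD of the group, drawn down to the axis where it would pass below it. miR-365-3p lies at 188 to 427 CPM in Hampshire and at 335 to 848 CPM in Pietrain, and 5 libraries have miR-193a-3p at 0.

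In single libraries, miR-193a-5p had 1294, 721, 1557, 943 and 1018 CPM in Hampshire thick fat, against 624 and 587 CPM in Hampshire thin fat. All 5 thick libraries lay above both thin ones. It had 978, 943, 1637 and 957 CPM in Pietrain thick fat, against 2399, 711 and 947 CPM in Pietrain thin fat. In Large White it had 867, 747, 1357 and 1304 CPM in thick fat, against 1188, 614, 1044 and 1075 CPM in thin fat. Thick and thin fat overlapped in Pietrain and in Large White, and the highest value of all was in Pietrain thin replicate 1.

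miR-365-3p had 303, 383, 427, 298 and 334 CPM in Hampshire thick fat, against 188 and 400 CPM in Hampshire thin fat. It had 476, 599, 848 and 515 CPM in Pietrain thick fat, against 489, 335 and 692 CPM in Pietrain thin fat. In Large White it had 341, 667, 671 and 718 CPM in thick fat, against 671, 507, 702 and 497 CPM in thin fat. The Hampshire libraries were the low ones, with Large White thick replicate 1 and Pietrain thin replicate 2 among their values, and fat classes overlapped in each breed.

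miR-193a-3p was at 0 in 5 libraries, those of Hampshire thick replicate 2, Hampshire thin replicate 1, Pietrain thick replicate 3, Pietrain thin replicate 1 and Large White thick replicate 1. All 18 of its sequences, of both forms, were at 0 there. From its median of 104 CPM in libraries with reads, between 46.8 and 185 reads were to be expected in these libraries. miR-193a-5p had between 324 and 4258 reads in them, and Pietrain thin replicate 1 had its highest level of all 22. The cause of these zeros was not tested. Where its count was above 0, miR-193a-3p averaged 119 ± 37.1 CPM in Hampshire (SD, n = 5), 105 ± 16.7 in Pietrain (SD, n = 5) and 117 ± 26.4 in Large White (SD, n = 7), so the breeds differed by less than the spread within them.

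The balance of both miR-193a-3p forms differed between breeds. In libraries with reads of the name, the CCU form took 14.0% to 37.7% of them in Hampshire (median 23.7%, n = 5), 4.32% to 9.73% in Pietrain (median 5.04%, n = 5) and 1.38% to 13.5% in Large White (median 7.05%, n = 7). Every Hampshire library with reads lay above every library of the other breeds. The mean difference within fat classes was 15.7 percentage points for Hampshire minus Large White (exact two-sided permutation test, p = 0.00571, adjusted over the 16 tests added after the data were seen 0.0381) and 17.9 points for Hampshire minus Pietrain (exact permutation p = 0.00952, adjusted p = 0.0381). Both raw p-values were the smallest that these designs can give. Thick and thin fat weighed equally in these differences, and Hampshire thin fat had only 1 library with reads of the name, at 23.7%. With 1 library left out at a time, the call was lost in 8 of 15 cases against Large White and in 10 of 14 against Pietrain, and the adjusted p ranged up to 0.183 in either comparison. The differences were then 13.3 to 17.3 and 15.6 to 19.5 points. These cases include libraries with the name at 0, 2 in Hampshire, 2 in Pietrain and 1 in Large White. Leaving out such a library does not change the share or its raw p. Pietrain minus Large White gave -2.25 points (exact permutation p = 0.310, adjusted p = 0.451).

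The breeds stood further apart in the level of the CCU form than in that of the CCC form. The CCU form averaged 28.7 ± 14.9 CPM in Hampshire libraries with reads (SD, n = 5), against 6.19 ± 1.92 CPM in Pietrain (SD, n = 5) and 9.35 ± 6.28 CPM in Large White (SD, n = 7). The CCC form averaged 89.9 ± 28.0, 98.5 ± 16.9 and 108 ± 24.3 CPM in the same libraries. With the forms split and the 5 libraries at 0 left out, edgeR's quasi-likelihood test gave the CCU form a log2 fold change of 1.81 ± 0.54 for Hampshire minus Large White (SE, adjusted p = 0.0323, one of 21.4% of 187 features called) and of 2.55 ± 0.62 for Hampshire minus Pietrain (SE, adjusted p = 0.0109, one of 17.1% called). The CCC form had -0.05 ± 0.22 and 0.12 ± 0.23 and was not called. With the 5 libraries kept, the CCU form had 1.32 ± 1.03 (edgeR adjusted p = 0.434) and 2.31 ± 1.12 (edgeR adjusted p = 0.172) and was not called in either comparison. The split was chosen after the values were seen. CCU counts were low, at 7 to 29 reads in Pietrain and 6 to 58 in Large White, close to the smallest count deposited. Over the most abundant sequence of each form alone, the CCU share was 17.2% to 39.5% in Hampshire, 5.82% to 11.7% in Pietrain and 1.97% to 15.0% in Large White. That share gave differences of 12.1 points against Large White (exact permutation p = 0.0171, adjusted p = 0.0487) and of 13.8 points against Pietrain (exact permutation p = 0.00952, adjusted p = 0.0381).

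**Figure D2:**
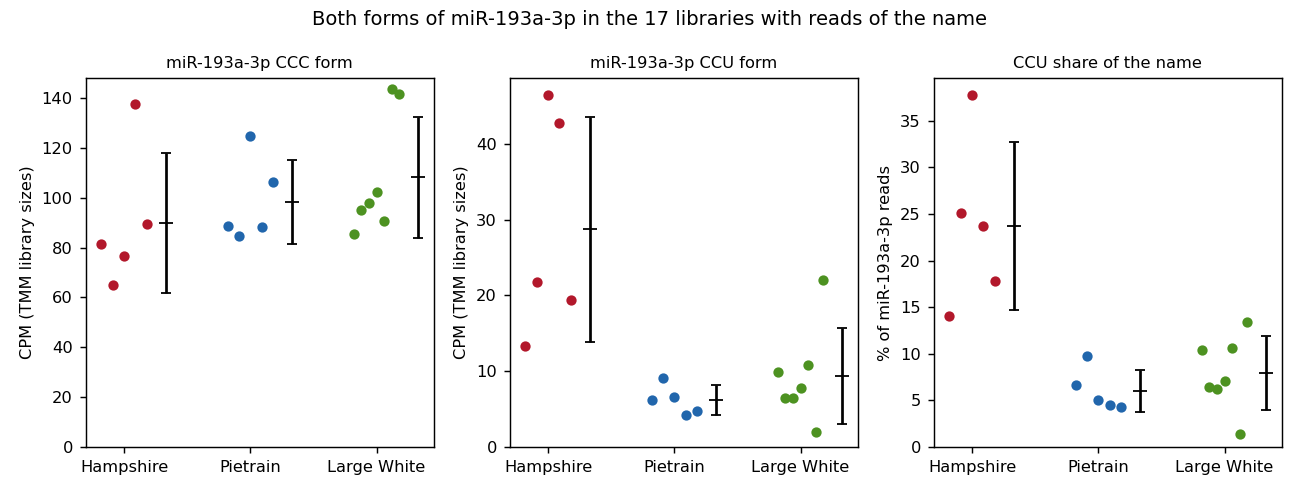
Level of the CCC form (left, CPM), level of the CCU form (middle, CPM) and share of the CCU form in all miR-193a-3p reads (right, %) by breed; points are the 17 libraries with reads of the name and black marks the mean and SD. The CCC levels of the breeds overlap, while every CCU share in Hampshire, from 14.0%, is above every share in Pietrain and Large White, up to 13.5%.

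miR-365-3p, the deeper arm of miR-365, was lower in Hampshire than in either other breed. It averaged 333 ± 80.8 CPM in Hampshire (SD, n = 7), against 565 ± 167 CPM in Pietrain (SD, n = 7) and 597 ± 134 CPM in Large White (SD, n = 8). The log2 fold change was -0.79 ± 0.23 for Hampshire minus Pietrain (SE, 95% interval -1.28 to -0.30, edgeR adjusted p = 0.0224) and -0.90 ± 0.23 for Hampshire minus Large White (SE, 95% interval -1.38 to -0.42, edgeR adjusted p = 0.00975). All 7 Hampshire libraries lay below the mean of each other breed, and the ranges overlapped. miR-365-3p was the 1 member called of 4 in both comparisons. Of 182 names tested, 17.6% were called for Hampshire minus Pietrain and 15.4% for Hampshire minus Large White, with 7.14% called lower in each. Pietrain minus Large White gave -0.11 ± 0.21 (SE, 95% interval -0.55 to 0.34, edgeR adjusted p = 1.00), and 0 of 182 names (0%) were called there, 14 of them at an unadjusted p under 0.05, with 4 called by DESeq2 and 0 by limma-voom. In bulk tissue, fewer cells of a type and less RNA per cell cannot be told apart.

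The miR-365-3p calls depended on a few libraries. Hampshire thin replicate 1 had the lowest value, 188 CPM, and the highest summed liver and gut marker level, 28459 CPM. Without it the log2 fold change was -0.64 against Large White (edgeR adjusted p = 0.109) and -0.54 against Pietrain (edgeR adjusted p = 0.175), and neither was called. Without Pietrain thick replicate 3 or thin replicate 3, Hampshire minus Pietrain was not called either, at -0.69 and -0.65 (edgeR adjusted p = 0.0512 and 0.0731). With Hampshire thin replicate 1 and thick replicate 3 both left out, the richest in the liver miRNA miR-122, the values were -0.69 and -0.59 (edgeR adjusted p = 0.0860 and 0.130) against Large White and Pietrain. Without the 5 libraries with miR-193a-3p at 0 and with the forms split, they were -0.77 and -0.44 (edgeR adjusted p = 0.0298 and 0.203). limma-voom gave -0.74 for Hampshire minus Pietrain (adjusted p = 0.0741). The sign was negative in each alternative run for both comparisons, and the adjusted p ranged from 0.00262 to 0.109 against Large White and from 0.00613 to 0.203 against Pietrain.

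The summed level of liver and gut markers was highest in Hampshire thin replicate 1, at 28459 CPM, and Hampshire thick replicate 3, at 23393 CPM. The other Hampshire libraries had 379 to 4809 CPM, below the highest Pietrain library. The 4 markers on that list, miR-122, miR-192, miR-194a and miR-885-5p, summed to 379 to 28459 CPM in Hampshire, 15.8 to 8122 CPM in Pietrain and 336 to 4234 CPM in Large White, and 3 of them could be tested and none was called. miR-192 was at 0 in 18 libraries, all of those of Pietrain and Large White among them, and miR-122 in 2. For miR-192, absence from the fat and absence from the deposited table of a breed cannot be told apart. miR-194a went the other way from the sum, with a mean of 215 CPM in Hampshire, 334 in Pietrain and 297 in Large White. The 3 skeletal muscle markers in the tables summed to 343 to 2336 CPM in Hampshire, 246 to 2008 CPM in Pietrain and 268 to 1134 CPM in Large White. Of these, miR-499-5p was called higher for Hampshire minus Pietrain, where 10.4% of all names were. Red blood cell markers summed to 458 to 1843, 424 to 1115 and 349 to 780 CPM, leukocyte markers to 417 to 1656, 656 to 1226 and 478 to 886 CPM, epithelial markers to 163 to 1710, 0 to 1868 and 373 to 1201 CPM, and endothelial markers to 32998 to 88263, 34307 to 48737 and 33476 to 61362 CPM in the same order of breeds. Some of these markers were at 0 throughout a breed. They were miR-144 and miR-223 in Pietrain, miR-142-3p and miR-200b in Large White, and miR-141 in both. For these too, absence from the fat and absence from the deposited table of a breed cannot be told apart. The part of the markers in the miR-365-3p and CCU results was not tested, apart from the miR-365-3p values without both miR-122-rich libraries.

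**Figure D3:**
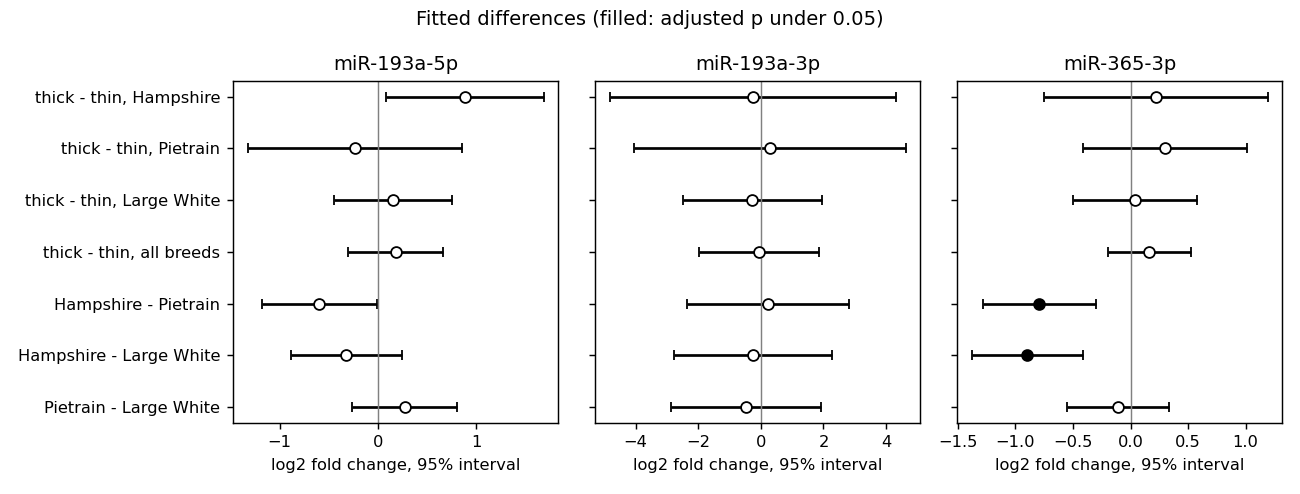
Fitted log2 fold change (horizontal axis, point) with its 95% interval for miR-193a-5p, miR-193a-3p and miR-365-3p in each comparison (rows), each panel on its own scale; filled points have an edgeR adjusted p under 0.05. The filled points are those of miR-365-3p at -0.79 for Hampshire minus Pietrain and -0.90 for Hampshire minus Large White, and the intervals of miR-193a-3p span several units.

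miR-193a-5p was not called in any breed comparison. It averaged 963 ± 361 CPM in Hampshire (SD, n = 7), 1225 ± 592 CPM in Pietrain (SD, n = 7) and 1024 ± 264 CPM in Large White (SD, n = 8). The log2 fold change was -0.59 ± 0.28 for Hampshire minus Pietrain (SE, edgeR adjusted p = 0.160) and -0.32 ± 0.27 for Hampshire minus Large White (SE, edgeR adjusted p = 0.472). Upper quartile scaling, which called 21.4% of names, called the first, at -0.86 (edgeR adjusted p = 0.0225). The adjusted p of the alternatives ranged from 0.0225 to 1.00. The log2 ratio of miR-365-3p to miR-193a-5p reads, which needs no library scaling, averaged -1.49 ± 0.55 in Hampshire (SD, n = 7), -1.05 ± 0.59 in Pietrain (SD, n = 7) and -0.77 ± 0.41 in Large White (SD, n = 8). Hampshire minus Large White was -0.61 within fat classes (exact permutation p = 0.0370, adjusted over 28 tests 0.173), which did not pass.

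miR-365-5p, the minor arm, was at 0 in 5 of 7 Hampshire libraries and in 2 of 8 Large White libraries and had reads in all 7 of Pietrain. The other Hampshire libraries, thick replicates 1 and 3, had 6.26 and 27.5 CPM. Pietrain had 4.77 to 27.4 CPM (median 19.5, n = 7) and the 6 Large White libraries with reads averaged 16.4 ± 9.04 CPM (SD, n = 6). From the median of 13.4 CPM, 6.03 to 18.8 reads were to be expected in the 7 libraries at 0, which is close to the smallest count deposited. No fold is given. The edgeR adjusted p was 0.0751 for Hampshire minus Pietrain and 0.0941 for Hampshire minus Large White. DESeq2 called both (adjusted p = 0.0120 and 0.0282), where it called 26.4% and 28% of 182 names.

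Thick and thin fat were compared to ask whether the family varies with fatness. No member was called in any fat comparison. The fitted log2 fold change of thick minus thin over all breeds was 0.18 ± 0.23 for miR-193a-5p, -0.07 ± 0.92 for miR-193a-3p, 0.16 ± 0.17 for miR-365-3p and 0.64 ± 1.02 for miR-365-5p (SE, edgeR adjusted p = 0.996 for each). For miR-365-3p the 95% interval, -0.20 to 0.52, and for miR-193a-5p, -0.30 to 0.66, leave out a 2-fold change in either direction. The intervals of the other members, -1.99 to 1.86 and -1.49 to 2.76, do not. edgeR called 0 of 182 names (0%) over all breeds, 0 of 172 (0%) in Hampshire, 0 of 161 (0%) in Pietrain and 0 of 170 (0%) in Large White, with 3, 5, 4 and 2 at an unadjusted p under 0.05. DESeq2 called 1, 3, 1 and 0, and limma-voom 0 in each.

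Among members fitted within a breed, the largest fat difference was that of miR-193a-5p in Hampshire. miR-365-5p did not pass the filter on low counts there with all libraries kept, with reads in 2 of 5 thick and 0 of 2 thin libraries. miR-193a-5p averaged 1107 ± 324 CPM in thick (SD, n = 5) and 606 ± 26.3 CPM in thin fat (SD, n = 2), a log2 fold change of 0.88 ± 0.34 (SE, 95% interval 0.08 to 1.68), above the thin mean in 5 of 5 thick libraries. The call threshold was missed (edgeR adjusted p = 0.894, from 0.190 to 0.997 over the alternatives). The same contrast was -0.24 ± 0.46 in Pietrain and 0.15 ± 0.26 in Large White (SE, edgeR adjusted p = 0.993 and 0.958). An interaction test, which asks if the breeds differ in their fat contrast, gave miR-193a-5p an edgeR adjusted p of 0.794, and called 0 of 182 names (0%), with 10 at an unadjusted p under 0.05, 2 called by DESeq2 and 0 by limma-voom.

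In the authors' deposited table, which holds DESeq2 values per sequence within each breed with a sign of thin minus thick as judged by the counts, no member sequence passed an adjusted p of 0.05. The share of all sequences in the authors' deposited table that passed was 0.0185% in Hampshire, 1.26% in Pietrain and 0% in Large White. In the authors' deposited table the tested member sequences numbered 56 in Hampshire, 66 in Pietrain and 69 in Large White. Of these, 4, 0 and 0 had an unadjusted p under 0.05. The share of all sequences at that unadjusted p was not computed, so these counts are not read as many or few. The most abundant miR-193a-5p sequence had -0.80 ± 0.43 (log2, SE) in Hampshire in the authors' deposited table. For Large White, the fold changes of the authors' deposited table correlated across sequences at r = 0.51 with those computed by the labels and at 0.91 with thick replicate 1 and thin replicate 1 exchanged, against 0.95 in Hampshire and 0.94 in Pietrain by the labels. Which assignment is right was not tested, and the exchange was run as an alternative.

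Reads of miR-365-3p were shorter in Hampshire than in Large White. Their mean length was 21.73 ± 0.040 nt in Hampshire (SD, n = 7), 21.83 ± 0.067 nt in Pietrain (SD, n = 7) and 21.90 ± 0.030 nt in Large White (SD, n = 8). Hampshire libraries lay between 21.69 and 21.81 nt and Large White libraries between 21.85 and 21.94 nt, with no overlap. The difference of -0.18 nt passed (exact two-sided permutation p = 0.000529, the smallest the design allows, adjusted over 28 tests 0.0148). Hampshire minus Pietrain was -0.10 nt (exact permutation p = 0.00952, adjusted p = 0.133) and Pietrain minus Large White -0.08 nt (exact permutation p = 0.0216, adjusted p = 0.173).

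By length, 20-nt reads made up 13.4% to 17.4% of miR-365-3p reads in Hampshire (median 14.9%, n = 7), 8.41% to 15.0% in Pietrain (median 10.3%, n = 7) and 8.99% to 12.4% in Large White (median 9.95%, n = 8), so that Hampshire and Large White libraries did not overlap. Reads of 22 nt made up a median of 48.4%, 57.0% and 55.2% in the same breeds. No test was made of single lengths. All reads of a library together had a mean length of 21.69 to 21.84 nt in Hampshire, 21.81 to 21.93 nt in Pietrain and 21.79 to 21.92 nt in Large White, with medians of 21.81, 21.89 and 21.88 nt. Hampshire was thus the shortest here too, while Pietrain and Large White overlapped nearly throughout. The part of library-wide length in the miR-365-3p difference was not tested. Since sequences under 6 reads were absent, the mean was also taken over the 4 most abundant sequences, which had reads in every library. There Hampshire had 21.76 ± 0.043 nt and Large White 21.90 ± 0.041 nt, a difference of -0.15 nt (exact permutation p = 0.000529, adjusted over the 16 added tests 0.00847). By that measure Hampshire minus Pietrain passed too, at -0.092 nt (exact permutation p = 0.0183, adjusted p = 0.0487), and was lost in 13 of 14 cases with 1 library left out. For miR-193a-5p the mean length was 21.48 ± 0.087 nt in Hampshire, 21.56 ± 0.045 nt in Pietrain and 21.52 ± 0.039 nt in Large White, and no difference passed.

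**Figure D4:**
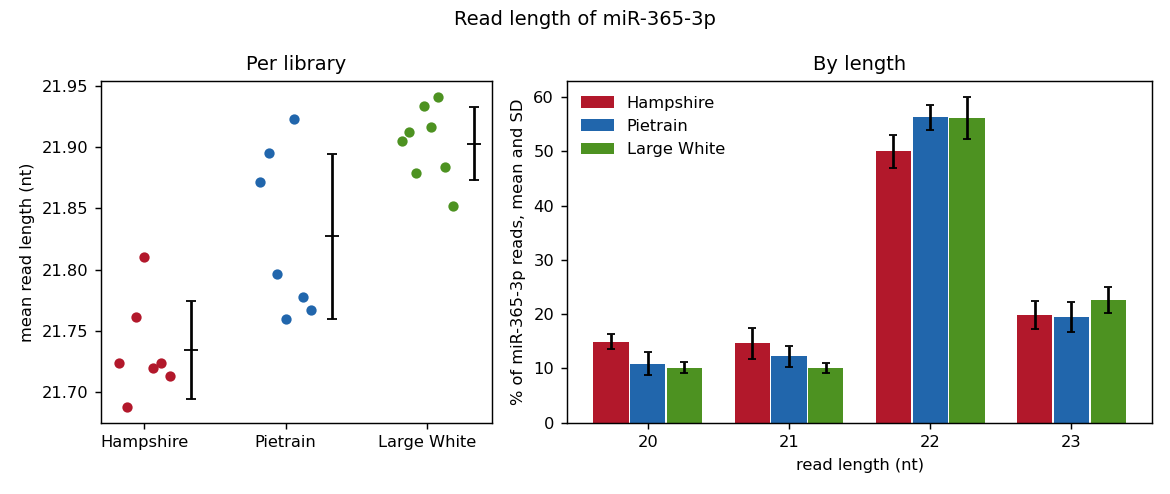
Left, mean length of miR-365-3p reads per library (nt; the axis does not start at 0) by breed, with mean and SD as black marks; right, share of miR-365-3p reads of 20 to 23 nt (%, bars are means over libraries with SD). Hampshire points, up to 21.81 nt, lie below all Large White points, from 21.85 nt, and the 20-nt share runs from 13.4% to 17.4% in Hampshire libraries against 8.99% to 12.4% in Large White.

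miR-365-3p carried 1 recurrent internal substitution, an A-to-G change at position 11 counted from the 5′ end (A11G, base of the abundant form first). It is shown because no other single-base change within positions 1 to 18 of any member came close to its reads.
miR-365-3p A form: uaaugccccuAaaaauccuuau
miR-365-3p G form: uaaugccccuGaaaauccuuau
Over all lengths the G form held 318 of 20316 reads, or 1.57%, in 15 of 22 libraries. Of the 22-nt pair shown, it had 257 reads beside 9066 of the A form. It was listed in 2 of 7 Hampshire, 6 of 7 Pietrain and 7 of 8 Large White libraries. In the 7 libraries where its 22-nt read was at 0, between 2.26 and 7.42 reads were to be expected at the pooled share, near the smallest count deposited. Over the summed reads of each breed the G form held 0.454% in Hampshire, 1.26% in Pietrain and 2.07% in Large White, or 1.11%, 2.64% and 3.23% of the 22-nt pair. No test was made of this share between breeds, and 5 of the 7 zeros were in Hampshire. The other internal changes had 6 to 18 reads per sequence and were in 1 or 2 libraries.

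The levels of miR-365-3p and miR-193a-5p were not correlated past the threshold. Over 22 libraries the log2(CPM + 1) values had a Pearson r of 0.39 (permutation p = 0.0735, adjusted over 12 relations 0.841) and a Spearman rho of 0.42 (permutation p = 0.0521, adjusted p = 0.462). Without the 2 libraries farthest from the median of miR-193a-5p r was 0.36. Within breeds r was 0.33 in Hampshire (n = 7), 0.37 in Pietrain (n = 7) and 0.44 in Large White (n = 8), with permutation p-values of 0.504, 0.402 and 0.271. miR-193a-5p and miR-193a-3p, the arms of 1 hairpin by name, had r = -0.26 over the 17 libraries with reads of both (permutation p = 0.315, adjusted p = 0.841). That name joins the CCC and CCU forms. With the CCU form alone, miR-193a-5p had r = 0.04 in these libraries (permutation p = 0.886, adjusted p = 0.886). For miR-365-3p and the CCC form r was 0.32 (permutation p = 0.214, adjusted p = 0.841).

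**Figure D5:**
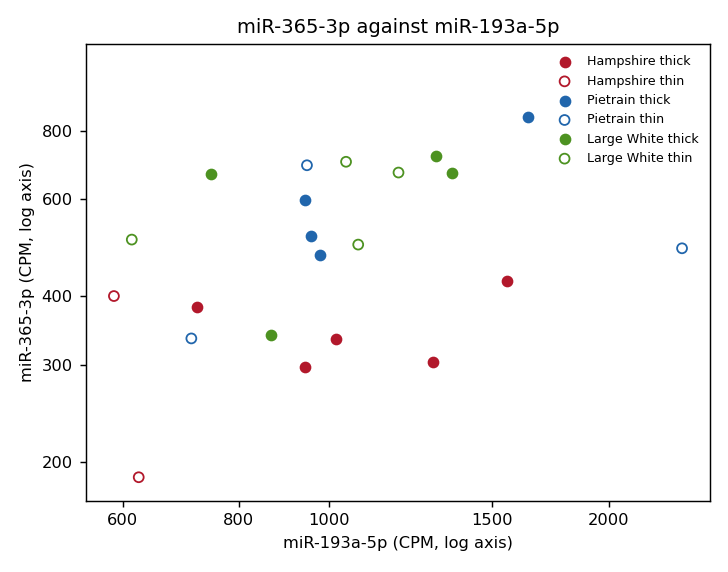
miR-365-3p (vertical axis, CPM, log scale) against miR-193a-5p (horizontal axis, CPM, log scale) in 22 libraries; color gives the breed, filled points are thick and open points thin fat. Pearson r on log2(CPM + 1) is 0.39 over all libraries, and the lowest miR-365-3p value, 188 CPM, is in Hampshire thin replicate 1.

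Among 106 names with reads in all libraries, those most like miR-193a-5p across the 22 libraries by Pearson r of log2(CPM + 1) were miR-7134-3p at 0.80, miR-191 at 0.80 and miR-92a at 0.79. Within breeds these r ran from 0.75, that of miR-7134-3p in Large White, to 0.90. Those most like miR-365-3p were miR-103 at 0.85, miR-20a at 0.63 and miR-17-5p at 0.62. Within breeds the r of miR-103 with miR-365-3p was 0.41 in Hampshire, 0.89 in Pietrain and 0.78 in Large White. The other names were less alike within breeds, with 0.28, 0.20 and 0.46 for miR-20a and 0.13, -0.08 and 0.81 for miR-17-5p in the same order. All these values share library and depth.

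Other miRNAs described, mostly in mouse, as promoting or repressing thermogenic fat were read beside miR-365-3p. Of 13 promoters on the list 10 were in the tables by name and tested. For Hampshire minus Large White, 2 were higher, where 8.24% of all names were, and 1, miR-365-3p, lower, where 7.14% were. For Hampshire minus Pietrain 3 were higher, where 10.4% of all names were, and 1, miR-365-3p again, lower, where 7.14% were. miR-32 had 1.44 ± 0.24 and 1.75 ± 0.26 against Large White and Pietrain (log2, SE, edgeR adjusted p = 0.000583 and 9.4e-05). miR-455-5p had 0.95 ± 0.18 and 1.36 ± 0.19 (log2, SE, edgeR adjusted p = 0.000875 and 5.9e-05), and miR-182 had 1.22 ± 0.37 against Pietrain (log2, SE, edgeR adjusted p = 0.0266). The list's median log2 fold change was -0.26 and -0.21, beside -0.03 and -0.05 over all names. Of 10 repressors 5 were in the tables and 4 tested. Of these 1, miR-27a, was higher in Hampshire against Large White and Pietrain, where 8.24% and 10.4% of all names were. Its values were 0.98 ± 0.15 against Large White and 0.88 ± 0.16 against Pietrain (log2, SE, edgeR adjusted p = 0.000355 and 0.00069). The other repressor in the tables, miR-214-3p, was at 0 in all 7 Hampshire libraries, against a mean of 1030 CPM in Pietrain and 1046 CPM in Large White. It was not tested, since names without reads in a breed were left out. Each breed was deposited as a table of its own, so absence from Hampshire fat and absence from that table cannot be told apart. miR-365-3p thus moved the other way from the called promoters miR-32, miR-455-5p and miR-182 in the same fits. It was not alone on the list in this. The fitted values of miR-196a, miR-328, miR-129a-5p, miR-30b-5p and miR-30c-5p were also lower in Hampshire in both comparisons, without a call. miR-196a had -1.56 ± 0.57 and -0.78 ± 0.56 (log2, SE, edgeR adjusted p = 0.0688 and 0.384) against Large White and Pietrain. miR-378 was slightly higher in both, without a call.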

How the data were processed

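Small RNA libraries from 22 pigs were read with an Illumina HiScan SQ, per the labels. The authors deposited raw counts of reads per sequence and miRNA name, 1 table per breed. Assembly Sscrofa10.2 and the tools bcl2fastq, FastQC and DESeq2 are named in the submitters' processing notes. The aligner and trimmer are not given in the sources used here. The authors also deposited DESeq2 comparisons, whose columns, per the file headers, are a mean signal, a log2 fold change, a test score and p-values.

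Counts were summed per name. Members, lists and named miRNAs were chosen with earlier results of these data known. The named miRNAs were the members, the 3 names most correlated with each of miR-193a-5p and miR-365-3p, and thermogenic list members that passed. Other list members are named beside them. Multi-breed fits used names with reads in every table. edgeR 4.0.16 (TMM, filterByExpr minimum count 10, robust quasi-likelihood test, R 4.3.3, limma 3.58.1) gave fold changes, with Benjamini-Hochberg adjustment over all names and a threshold of 0.05. Shares and lengths were compared by exact permutation within strata (scipy, numpy), correlations with 100000 permutations. The edgeR fit was run on simulated counts, and the permutation test was compared with that of scipy on random values. DESeq2, limma-voom and counts with the deposited lower limit were not covered by these checks. Alternatives were other scalings and filters, DESeq2 1.42.0, limma-voom, the most abundant sequence alone and leaving out libraries. The labels do not name litters or shared handling, so p-values measure only the spread between these animals' libraries. Reads carry no molecular identifiers, so PCR copies are not separate molecules. Library totals, 431542 to 3137757 reads, set the precision of low members.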

Additional observations from a re-analysis of the deposited data

Results flagged for a closer look

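Of 62 group and measure combinations examined, 6 had a sample far from its group by Dixon's gap test, where chance flags about 1 in 20. miR-193a-5p was far above its group in Pietrain thick replicate 3, at 1637 CPM. miR-365-3p was far below its group in Large White thick replicate 1, at 341 CPM, one of the pair for which the authors' deposited table goes against the labels. miR-365-5p was far above its group in Hampshire thick replicate 3, at 27.5 CPM, one of the libraries richest in miR-122. The CCC form of miR-193a-3p was at 0 in Hampshire thick replicate 2, as was the whole name. In the same library, the most shallow of all, the most abundant sequence of miR-193a-5p held 31.5% of its reads, below the other thick Hampshire libraries. The mean length of miR-365-3p over its 4 most abundant sequences was 21.86 nt in Large White thin replicate 4, below its group. No member's fat difference was flagged as varying between breeds.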

How the results depend on the processing

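No paired analysis was possible because the labels give no animal, litter or batch shared between groups and replicate numbers were given in accession order. The added alternatives were chosen after seeing the data. The cause of the changes below was not tested, except that a test over fewer libraries cannot reach as small an exact p, and that the fitted values of miR-193a-3p and miR-365-5p, with libraries at 0, depend on those libraries and on the prior count and are no bounds. Limits are the smallest deposited count of 6 reads, the shallow libraries in which miR-365-5p and the CCU form fall to that level, 2 thin Hampshire libraries, and breed being the same as deposited table.

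DESeq2 called more names than edgeR: 1 for thick minus thin over all breeds, 1 in Pietrain and 3 in Hampshire, 2 for the interaction, 4 for Pietrain minus Large White (0 each in edgeR) and 51 for Hampshire minus Large White (28 in edgeR). It called miR-365-5p at -3.53 for Hampshire minus Large White and -4.02 for Hampshire minus Pietrain (log2). RLE and upper quartile scaling each called 1 name for thick minus thin over all breeds. Upper quartile scaling called miR-193a-5p at -0.86 and miR-365-5p at -4.78 for Hampshire minus Pietrain, and gave miR-365-3p -0.064 for thick minus thin in Hampshire. Library totals gave miR-365-3p -0.029 in Large White, and the most abundant sequence alone gave miR-365-5p 0.027 in Pietrain.

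limma-voom lost the call of miR-365-3p for Hampshire minus Pietrain, at -0.74. It changed the sign of miR-193a-3p (0.12 for thick minus thin over all breeds, 2.29 in Hampshire, -0.52 for Hampshire minus Pietrain), of miR-365-5p (-0.10 for thick minus thin over all breeds, -0.33 in Large White) and of miR-193a-5p (0.12 in Pietrain), none of them called.

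Without both miR-122-rich libraries, miR-365-3p was not called for Hampshire minus Large White (-0.69) or Hampshire minus Pietrain (-0.59). Its thick minus thin value in Hampshire was then -0.35, that of miR-193a-3p for Hampshire minus Large White 0.25, and the interaction had 2 calls. With forms split and the libraries with miR-193a-3p at 0 left out, 4 names were called for thick minus thin in Pietrain and 2 for the interaction. miR-365-3p was not called for Hampshire minus Pietrain (-0.44) and had -0.22 for thick minus thin in Hampshire. miR-193a-5p had 0.22 for thick minus thin in Pietrain and -0.28 for Pietrain minus Large White, where miR-365-5p had -0.0018.

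With the Large White labels exchanged, miR-193a-3p had 0.19 for thick minus thin over all breeds and 0.36 in Large White. The log2 ratio of miR-365-3p to miR-193a-5p was 0.0065 and the share of the most abundant miR-365-3p sequence -0.825 points for thick minus thin. Among libraries with reads of miR-193a-3p, the 5p share of miR-193a was 6.26 points for thick minus thin (exact permutation test, adjusted p = 0.0431), against 5.66 points by the labels (exact permutation test, adjusted p = 0.119), where leaving out 1 library gave 0.898 to 6.04 points and the only thin Hampshire library with reads had 76.5%. With the exchange the same share was 0.226 points for Pietrain minus Large White. Without the 2 libraries farthest from the median, r was 0.055 for miR-193a-5p and miR-193a-3p over all libraries, and within Large White 0.78 for miR-365-3p and miR-193a-3p and 0.72 for miR-365-3p and the CCC form, each of the other sign.

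Leaving out 1 library at a time gave these ranges. Calls numbered 0 to 1 for thick minus thin over all breeds, 0 to 2 in Pietrain, 0 to 1 in Large White, 0 to 1 in Hampshire, 0 to 2 for the interaction and 0 to 1 for Pietrain minus Large White. The log2 value of miR-193a-3p ran from -0.32 to 0.34 for thick minus thin over all breeds, -0.33 to 0.73 in Pietrain, -0.73 to 0.13 in Large White, -1.26 to 9.59 in Hampshire, -5.39 to 0.27 for Hampshire minus Large White and -4.91 to 0.76 for Hampshire minus Pietrain. miR-193a-5p ran from -0.57 to 0.48 for thick minus thin in Pietrain, -0.027 to 0.29 in Large White and -0.081 to 0.45 for Pietrain minus Large White. miR-365-5p ran from -0.55 to 0.24 in Pietrain, -0.96 to 0.52 in Large White, -5.03 to -3.52 for Hampshire minus Large White and -5.46 to -4.31 for Hampshire minus Pietrain. It was called without Hampshire thick replicate 3 in both of these and without Large White thick replicate 1 or 2 in the second.

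miR-365-3p ran from -0.064 to 0.21 for thick minus thin in Large White, -0.31 to 1.06 in Hampshire, -0.25 to 0.033 for Pietrain minus Large White, -1.22 to -0.64 for Hampshire minus Large White and -1.12 to -0.54 for Hampshire minus Pietrain. Its calls were lost without Hampshire thin replicate 1 in both of these and without Pietrain thick replicate 3 or thin replicate 3 in the second.

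The 5p share of miR-193a ran from -1.17 to 6.66 points for thick minus thin, -5.86 to 5.89 for Hampshire minus Large White, -7.67 to 4.08 for Hampshire minus Pietrain and -0.0275 to 3.07 for Pietrain minus Large White. Among libraries with reads of the 3p name these breed ranges were -6.16 to 1.77, -5.94 to 1.66 and -0.737 to 0.726. For thick minus thin, the 5p share of miR-365 ran from -0.0933 to 0.473 points, the log2 ratio of miR-365-3p to miR-193a-5p from -0.28 to 0.12, the share of the most abundant miR-365-3p sequence from -0.0626 to 1.35 points (-0.292 to 1.82 for Pietrain minus Large White), the mean miR-365-3p length from -0.000254 to 0.0257 nt and the CCU share from -0.23 to 2.40 points. Over the 4 most abundant sequences the length ran from -0.00604 to 0.0162 nt for thick minus thin and from -0.107 to -0.0721 nt for Hampshire minus Pietrain. The CCU share ran from 13.3 to 17.3 points against Large White and 15.6 to 19.5 against Pietrain, and over the pair of main sequences from 9.52 to 14.8 and from 11.3 to 16.1. All were positive. The adjusted p missed 0.05 in 8 of 15 and 10 of 14 cases for the share of all reads, and in 12 of 15 and 10 of 14 for the pair.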
